A study of Mus musculus with 12 samples.

Results

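The Schlafen genes of mouse liver were read in 12 RNA sequencing libraries. The members were the 7 rows of the deposited table, of 54532 genes in all, whose gene names were Slfn1, Slfn2, Slfn3, Slfn4, Slfn5, Slfn8 and Slfn9. These genes were picked by name with earlier results of the same counts known, so the fits below describe them and are not independent evidence that they moved. All mice were wild type, and all livers came 9 days after an adenovirus was given. The 4 groups of 3 libraries were ANG8 (a virus to overexpress ANGPTL8), shANG8 (a virus to knock ANGPTL8 down), shCtrl (a control hairpin virus) and Ad_GFP (a control virus, GFP by its title). Every group thus carried a virus, and no uninfected liver was analysed here. The labels give neither the age nor the sex of the mice, and they do not say whether libraries came from separate mice, so the p-values reflect only how far these libraries spread, and that spread may be technical.

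Schlafen proteins share an amino-terminal core, and several of them bind or cut RNA. The family is known for genes that are switched on by type I interferon and for roles in restraining the growth of T cells and the maturation of myeloid cells. In the mouse there are short forms (Slfn1 and Slfn2), intermediate forms (Slfn3 and Slfn4) and long forms (Slfn5, Slfn8 and Slfn9) that add a helicase-like part. In liver tissue they are known mainly from immune cells, but these libraries were made from whole tissue, in which fewer cells of a type and less RNA per cell cannot be told apart.

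The 7 members lie together on chromosome 11 (GRCm38), within 264 kb from 82951349 to 83215154. Slfn5 (ENSMUSG00000054404) comes first, on the plus strand, followed on the minus strand by Slfn9 (ENSMUSG00000069793, 82978390 to 82991830) and Slfn8 (ENSMUSG00000035208, 83002158 to 83020810). Slfn2 (ENSMUSG00000072620, 83065112 to 83070678), Slfn1 (ENSMUSG00000078763, 83116849 to 83122670), Slfn4 (ENSMUSG00000000204, 83175186 to 83190216) and Slfn3 (ENSMUSG00000018986, 83191330 to 83215154) follow on the plus strand. All 7 are annotated as protein-coding. The longest annotated coding sequence was 1011 bases for Slfn1 and 1134 for Slfn2, 1920 for Slfn3 and 1806 for Slfn4, and 2652 for Slfn5 and 2730 for each of Slfn8 and Slfn9 (GENCODE vM21). Sequence is shared within the cluster, which makes some counts uncertain. Of the distinct 50-base stretches of each gene's transcripts, 15.6% of those of Slfn3, 14.6% of Slfn8, 11.5% of Slfn9 and 10.8% of Slfn4 also occur in transcripts of another gene, against 4.27% for Slfn2, 3.37% for Slfn5 and 0.606% for Slfn1. Slfn10-ps, a pseudogene between Slfn8 and Slfn2, held the largest such part of Slfn8 (10.1%) and of Slfn9 (8.10%).

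The promoters are shown because the letters found in them differed between the long forms and the others. Promoter windows from RefSeq (GRCm38.p6, 250 bases before to 50 after a start) were present for all 7 members, with 2 for Slfn8. The letters GAAA, any 2 bases and GAAA again, the core of the element that interferon-activated factors bind, were searched on both strands and found in the windows of 3 members, all of them long forms. They occur in 3.99% of the 27025 genes with a window. In Slfn9 and Slfn8 the match lay 45 to 36 and 48 to 39 bases before the start and was the same 10 bases. Compared position by position without gaps, 50 of the 70 positions printed here were identical. Slfn8 holds an added base just after the match, which shifts the rest, so this count understates how alike the stretches are. In Slfn5 the match lay 155 to 146 bases before the RefSeq start and ran into a stretch of A. The deposited Slfn5 gene begins further upstream, at 82951349. This window (82951852 to 82952151) thus lies inside the annotated gene. The 3 stretches follow, with the matched letters in capitals, on the strand of each gene (chr11:82991836-82991905, minus; chr11:83020819-83020888, minus; chr11:82951917-82951986, plus).
Slfn9: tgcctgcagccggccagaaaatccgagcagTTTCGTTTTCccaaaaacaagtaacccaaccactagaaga
Slfn8: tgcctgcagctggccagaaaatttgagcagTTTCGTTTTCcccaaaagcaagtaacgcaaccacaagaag
Slfn5: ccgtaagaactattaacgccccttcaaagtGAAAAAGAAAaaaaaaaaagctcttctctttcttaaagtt

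The other 4 members, the short and intermediate forms, shared different letters. ACTTCCTGG (or CCAGGAAGT on the other strand), which holds the GGAA core bound by ETS-family factors, was found in the windows of Slfn1, Slfn2, Slfn3 and Slfn4 and in none of the windows of the long forms. These letters were chosen after the 7 windows had been read, and they occur in 0.999% of genes. The windows of these 4 members hold no match of the interferon element. A GAS-type element (TTCNNNGAA), known from interferon gamma responses, occurs in 9.55% of genes and in none of the 7 windows. A match describes letters, not a bound site. The 4 stretches are aligned on the match (chr11:83116716-83116784, chr11:83065027-83065095, chr11:83175083-83175151 and chr11:83191258-83191326, all plus strand).
Slfn1: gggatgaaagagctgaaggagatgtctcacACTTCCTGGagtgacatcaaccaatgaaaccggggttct
Slfn2: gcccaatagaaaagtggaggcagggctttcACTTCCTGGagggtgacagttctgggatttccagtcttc
Slfn4: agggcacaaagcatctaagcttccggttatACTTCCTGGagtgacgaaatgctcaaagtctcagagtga
Slfn3: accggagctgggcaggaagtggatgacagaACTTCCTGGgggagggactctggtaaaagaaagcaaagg

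Libraries held 12537083 to 15144312 counts. Counts were scaled by library size to CPM with TMM factors, and a gene was called where edgeR's quasi-likelihood test gave a Benjamini-Hochberg adjusted p under 0.05 over the 14686 genes that passed a filter on low counts. Slfn3 did not pass that filter, and the other 6 members did. On the leading principal component the ANG8 libraries (65.1 to 70.5) lay apart from all others (-51.6 to 10.6). Mitochondrial genes took 22.5% to 43.8% of the counts in ANG8 and 19.8% to 34.9% in Ad_GFP, against 19.3% to 22.9% in shANG8 and 22.9% to 24.2% in shCtrl. Angptl8 itself was 2.43-fold higher in ANG8 than in Ad_GFP (edgeR adjusted p = 0.0201) and lower in every shANG8 library than in any shCtrl library, which did not pass (log2 fold change -1.29, SE 0.33, adjusted p = 0.235). Its mean level of 299 CPM in shCtrl was above the 216 CPM in ANG8, but the libraries overlapped (167 to 390 and 164 to 313 CPM). The shANG8 mean of 122 CPM was above the 89.0 CPM of Ad_GFP, though these libraries overlapped (79.2 to 144 and 80.3 to 96.7 CPM). Between the controls, Angptl8 was 3.36-fold higher in shCtrl than in Ad_GFP. The control libraries did not overlap, but edgeR did not call this gene between them (adjusted p = 0.338). In these libraries, all taken 9 days after the virus, the controls of the arms were not at a shared Angptl8 level.

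In ANG8 livers the Schlafen transcripts together were higher than in Ad_GFP livers. The 7 members summed to 214, 217 and 204 CPM in the ANG8 libraries, against 75.2, 106 and 123 CPM in the Ad_GFP libraries, so the groups did not overlap. EdgeR called 5 of the 6 tested members, all higher in ANG8, where 13.5% of all tested genes were called and 7.08% were called higher. The median log2 fold change of the 6 was 0.98, beside -0.00022 over all tested genes. The libraries of the groups did not overlap for the 5 called members, nor, in either direction, for 34.1% of all tested genes. Of those tested, 2627 of 14686 were higher in every ANG8 library. Since the genes were picked with this comparison known, nothing is read from these counts.

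Among the short forms, Slfn2, which keeps T cells and monocytes quiescent in the mouse, rose. Its level was 35.6, 36.0 and 35.4 CPM in ANG8 libraries, against 13.1, 12.2 and 16.5 CPM in Ad_GFP libraries. The groups lay far apart, with an SD of 0.329 CPM in ANG8, 2.28 CPM in Ad_GFP and 2.89 CPM in shANG8. An SD of 3 libraries is itself uncertain, so nothing is read from the small one. It was 2.56-fold higher in ANG8 (log2 fold change 1.35, SE 0.20, adjusted p = 0.000487) and was called under all 13 alternatives run. Slfn1, whose forced expression slows the growth of mouse thymocytes, had 12.01, 16.0 and 13.2 CPM in ANG8, against 5.31, 8.73 and 8.93 CPM in Ad_GFP. Each ANG8 library was above each Ad_GFP library (log2 fold change 0.85, SE 0.24, adjusted p = 0.0248). It was not called once Ad_GFP replicate 1 was left out (adjusted p = 0.121), nor without ANG8 replicate 2 (0.0970) or ANG8 replicate 3 (0.0544).

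The intermediate forms were not called. Slfn4, a gene of myeloid cells that changes as macrophages mature, had 47.3, 33.7 and 45.0 CPM in ANG8, against 16.7, 29.4 and 35.1 CPM in Ad_GFP. The groups overlapped, because Ad_GFP replicate 3 was above ANG8 replicate 2, and the estimate was 0.64 on the log2 scale (SE 0.23, adjusted p = 0.0742), above the threshold. It passed with limma voom (adjusted p = 0.0494), on unfiltered counts (0.0218), with a replicate block (0.0488) and without Ad_GFP replicate 3 (0.0326), within a range of 0.0218 to 0.279 over its 13 alternatives. Slfn3, studied in rodents for its part in the differentiation of gut epithelium, was near the limit of detection, with 12, 12 and 0 counts in the ANG8 libraries and 1, 3 and 1 in the Ad_GFP libraries. Given its shared sequence, those few counts cannot be assigned with certainty.

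Among the long forms, Slfn9 was called. Its level was 58.9, 44.8 and 52.0 CPM in ANG8, against 12.3, 20.3 and 21.6 CPM in Ad_GFP, with no overlap. It was 2.88-fold higher (log2 fold change 1.53, SE 0.33, adjusted p = 0.00962). Slfn5, an interferon-induced nuclear member, had 40.4, 65.2 and 38.8 CPM in ANG8, against 17.7, 20.8 and 28.5 CPM in Ad_GFP. ANG8 replicate 2 was well above the other ANG8 libraries, and all of them were above Ad_GFP (log2 fold change 1.10, SE 0.25, adjusted p = 0.00830). Slfn9 and Slfn5 were each called under all 13 alternatives. Slfn8, the close relative of Slfn9, rose less, with 18.7, 19.97 and 19.9 CPM in ANG8 against 10.0, 14.6 and 11.7 CPM in Ad_GFP. The groups did not overlap (1.61-fold, log2 fold change 0.69, SE 0.22, adjusted p = 0.0482), but it was not called when Ad_GFP replicate 1 (adjusted p = 0.178) or 3 (0.120) was left out, nor without ANG8 replicate 1 (0.103), ANG8 replicate 2 (0.106) or ANG8 replicate 3 (0.116).

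**Figure D1:**
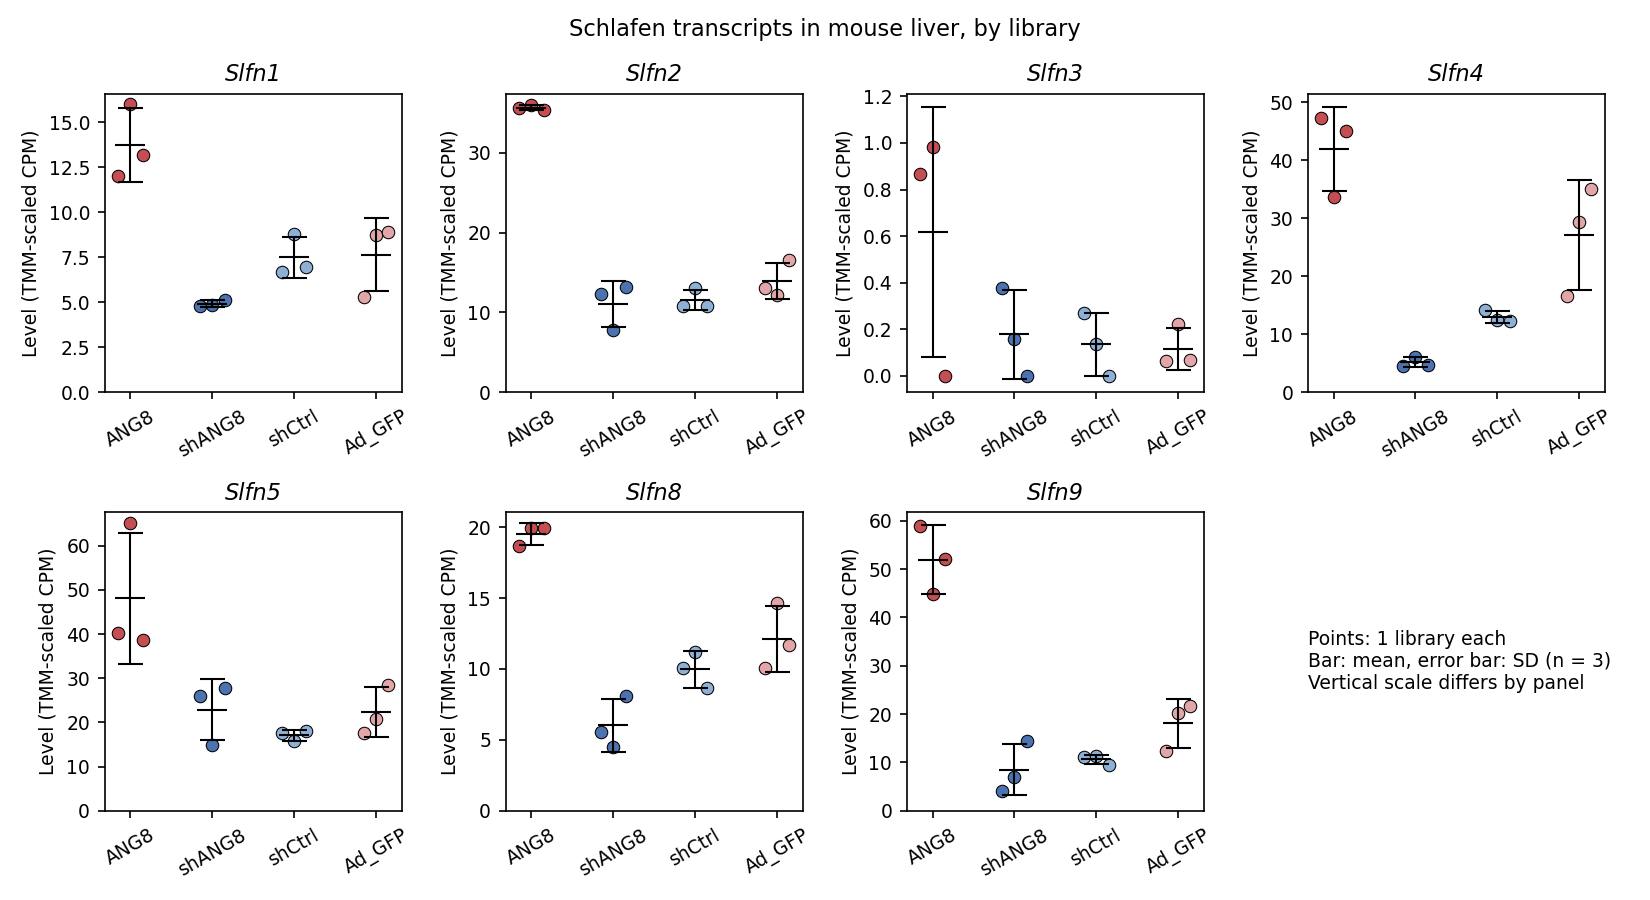
Levels of the 7 Schlafen genes (TMM-scaled CPM, vertical axes that differ by panel) in the 4 groups, with 1 point per library and the mean and SD (n = 3) as bars. For Slfn2 the ANG8 libraries sit at 35.4 to 36.0 CPM, above all other libraries, while for Slfn4 the shANG8 libraries sit at 4.54 to 6.13 CPM, below all other libraries.

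In the knockdown arm 1 of the 6 tested members was called. Slfn4 fell to 4.54, 6.13 and 4.78 CPM in shANG8 libraries, against 14.1, 12.49 and 12.2 CPM in shCtrl libraries. The groups lay well apart, with a mean of 5.15 ± 0.856 CPM in shANG8 and 12.9 ± 1.02 CPM in shCtrl (SD, n = 3 each), a log2 fold change of -1.33 (SE 0.25, adjusted p = 0.0335). It was 1 of 28 genes called in this comparison, 0.191% of those tested, and 1 of 19 called lower, 0.129% of those tested. The size of the fall held within -1.47 to -1.27 over the 13 alternatives, of which 7 called it. It was not called with limma voom (adjusted p = 0.219), without shCtrl replicate 1 (0.154), 2 (0.0947) or 3 (0.0813), or without shANG8 replicate 1 (0.140) or 3 (0.0971).

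The other 5 tested members did not pass in shANG8 against shCtrl, and their median with Slfn4 was -0.46, beside 0.01 over all tested genes. Slfn1 had 4.77, 4.87 and 5.13 CPM in shANG8, against 6.71, 8.81 and 6.99 CPM in shCtrl. Slfn8 had 5.53, 4.48 and 8.08 CPM in shANG8, against 10.0, 11.2 and 8.66 CPM in shCtrl. For both genes each shANG8 library was below each shCtrl library, with log2 fold changes of -0.61 (SE 0.24, adjusted p = 0.539) and -0.72 (SE 0.23, adjusted p = 0.389). With Slfn4 that made 3 of 6 tested members without overlap, all lower in shANG8. Of all tested genes 12.9% had none in either direction, and 995 of 14686 were lower in every shANG8 library. Slfn9 was uneven, with 4.09, 6.99 and 14.5 CPM in shANG8 around the 11.1, 11.3 and 9.49 CPM of shCtrl. Slfn2 (12.3, 7.78 and 13.1 CPM in shANG8, against 10.8, 13.0 and 10.9 CPM in shCtrl) overlapped as well, with a log2 fold change of -0.06 (SE 0.20, adjusted p = 0.975). Slfn5 had 26.0, 15.01 and 27.8 CPM in shANG8, against 17.6, 15.7 and 18.1 CPM in shCtrl. It alone had a positive estimate (0.42, SE 0.25, adjusted p = 0.714), although those of Slfn2 and Slfn9 turned positive when single libraries were left out (shCtrl replicate 2 or shANG8 replicate 2 for Slfn2, shANG8 replicate 1 for Slfn9). Slfn3 had 5, 2 and 0 counts in shANG8 and 4, 2 and 0 in shCtrl.

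The ANG8 and shANG8 effects were then compared directly, as the effect of ANG8 over Ad_GFP minus that of shANG8 over shCtrl. These arms share no library, and their controls differed in mean Angptl8 level (299 CPM in shCtrl, 89.0 CPM in Ad_GFP). EdgeR called 5 of the 6 tested members, each with the higher effect under ANG8, where 6.62% of all tested genes were called and 3.72% were called higher. The difference was 1.97 on the log2 scale for Slfn4 (SE 0.34, adjusted p = 0.00327), made up of an estimate of 0.64 under ANG8 and of -1.33 under shANG8. It was 1.84 for Slfn9 (SE 0.48, adjusted p = 0.0370), 1.45 for Slfn1 (SE 0.34, adjusted p = 0.0181), 1.42 for Slfn2 (SE 0.29, adjusted p = 0.00866) and 1.41 for Slfn8 (SE 0.32, adjusted p = 0.0164). Slfn5 did not pass (0.68, SE 0.35, adjusted p = 0.276). Slfn2, Slfn4 and Slfn8 were called under all 19 alternatives of this comparison. The call of Slfn9 was lost when any 1 of 8 libraries was left out (Ad_GFP replicates 1 and 2, ANG8 replicates 1 and 3, the 3 shCtrl libraries and shANG8 replicate 2), with adjusted p of 0.0615 to 0.0979, and that of Slfn1 without shCtrl replicate 2 (0.0510).

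**Figure D2:**
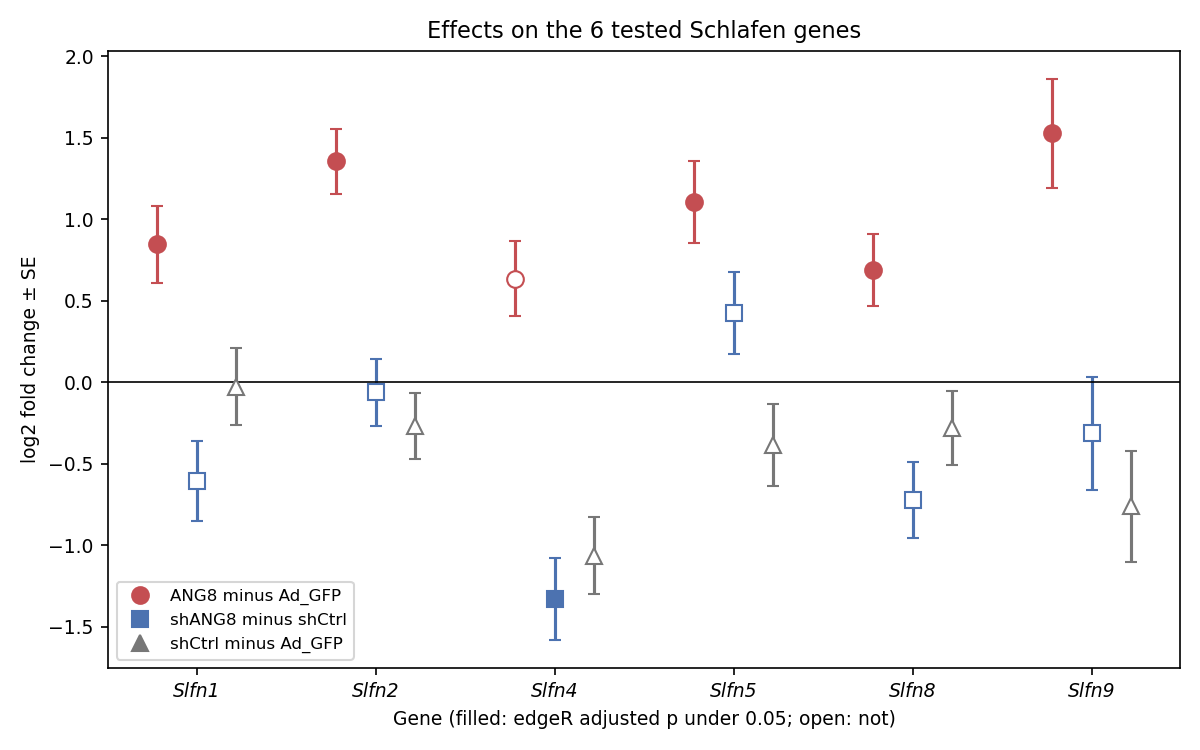
Log2 fold changes with SE for the 6 tested Schlafen genes in the 3 pairwise comparisons, filled where the edgeR adjusted p was under 0.05. All 6 ANG8 estimates are above 0, from 0.64 for Slfn4 to 1.53 for Slfn9, and Slfn4 alone is called under shANG8, at -1.33.

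The control viruses were compared with each other as well. Each of the 6 tested members had a lower estimate in shCtrl than in Ad_GFP, from -0.03 for Slfn1, whose sign changed under 5 alternatives, to -1.06 for Slfn4, with a median of -0.33 beside -0.02 over all tested genes. This comparison shares Ad_GFP with that of ANG8 and shCtrl with that of shANG8. Slfn4 averaged 12.9 ± 1.02 CPM in shCtrl and 27.1 ± 9.45 CPM in Ad_GFP (SD, n = 3 each), with no overlap, and was not called (-1.06 on the log2 scale, SE 0.23, adjusted p = 0.338). DESeq2 called it (adjusted p = 0.0237), as did edgeR on unfiltered counts (0.00071) and edgeR when Ad_GFP replicate 1 was left out (0.0150), within a range of 0.00071 to 0.941 over 13 alternatives. Slfn9 did not overlap either, at 9.49 to 11.3 CPM in shCtrl and 12.3 to 21.6 CPM in Ad_GFP (-0.76, SE 0.34, adjusted p = 0.557). Of all tested genes 16.1% did not overlap in either direction, and 1238 of 14686 were lower in every shCtrl library. EdgeR called 0 of 6 members here and 0% of all tested genes. At an unadjusted p under 0.05 there were 2 members and 1286 of the 14686 tested genes. DESeq2 called 1 member, and voom called 0.

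Per kilobase of gene length, the members stood in different orders in the 4 groups. Slfn2 was the highest in each of them, at 21.4 ± 0.197 CPM per kb in ANG8, 6.66 ± 1.74 in shANG8, 6.96 ± 0.759 in shCtrl and 8.38 ± 1.37 in Ad_GFP (SD, n = 3 each). In Ad_GFP its range overlapped that of Slfn4, the next in order. Slfn4 was second in ANG8 (10.6 ± 1.83 CPM per kb) and in Ad_GFP (6.83 ± 2.38), the third in shCtrl (3.26 ± 0.256) and sixth in shANG8 (1.30 ± 0.216), where it overlapped Slfn9 (1.43 ± 0.898). In ANG8 the ranges of Slfn4, Slfn9, Slfn5 and Slfn1 overlapped from each to the next, and Slfn8 (4.77 ± 0.182) was below them. In shCtrl the neighbours Slfn2, Slfn1, Slfn4 and Slfn5 (2.71 ± 0.197) did not overlap.

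**Figure D3:**
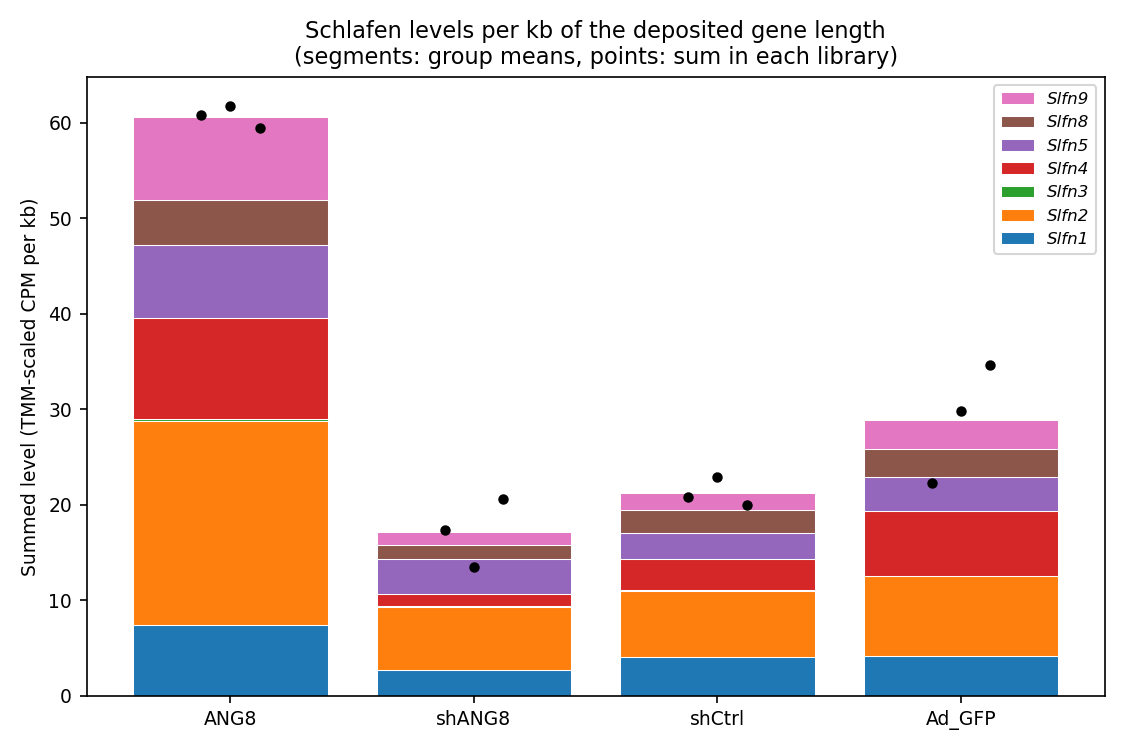
Summed level of the 7 Schlafen genes in CPM per kb of gene length, with group means as stacked segments and the sum in each library as points. The ANG8 libraries sit at 59.4 to 61.7 CPM per kb, above every other library, and Slfn2 is the largest segment in all 4 groups.

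As a share of this per-length sum, Slfn4 took 17.5% ± 3.23 in ANG8 against 23.2% ± 3.69 in Ad_GFP, and 7.96% ± 3.04 in shANG8 against 15.4% ± 1.65 in shCtrl. Its shANG8 shares (5.84% to 11.4%) were below its shCtrl shares (13.8% to 17.1%). Slfn9 took 14.4% ± 2.06 in ANG8 (12.2% to 16.2%) against 10.4% ± 1.09 in Ad_GFP (9.24% to 11.4%), and these ranges did not overlap. Slfn5 took 20.8% ± 3.07 in shANG8 (17.5% to 23.6%) against 12.8% ± 1.79 in shCtrl (10.9% to 14.3%). The share of Slfn2 overlapped in ANG8 (35.1% to 35.8%) and Ad_GFP (24.6% to 35.3%). A share can move because another member moved.

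The effects showed no left-to-right order along the cluster. From left to right the ANG8 estimates were 1.10 for Slfn5, 1.53 for Slfn9, 0.69 for Slfn8, 1.35 for Slfn2, 0.85 for Slfn1 and 0.64 for Slfn4. Unc45b, a myosin chaperone that flanks the cluster beside Slfn5, did not pass in either arm. It had a log2 fold change of 0.54 (SE 0.48, adjusted p = 0.513) under ANG8 and of 0.54 (SE 0.48, adjusted p = 0.845) under shANG8. The remaining rows of the family were near 0. Slfn10-ps had 4, 11 and 2 counts in ANG8, 4, 0 and 11 in shANG8, 0, 8 and 0 in shCtrl and 1, 0 and 1 in Ad_GFP. Slfn14, Slfnl1 and the antisense gene Slfn5os had 2, 1 and 0 counts over all 12 libraries.

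**Figure D4:**
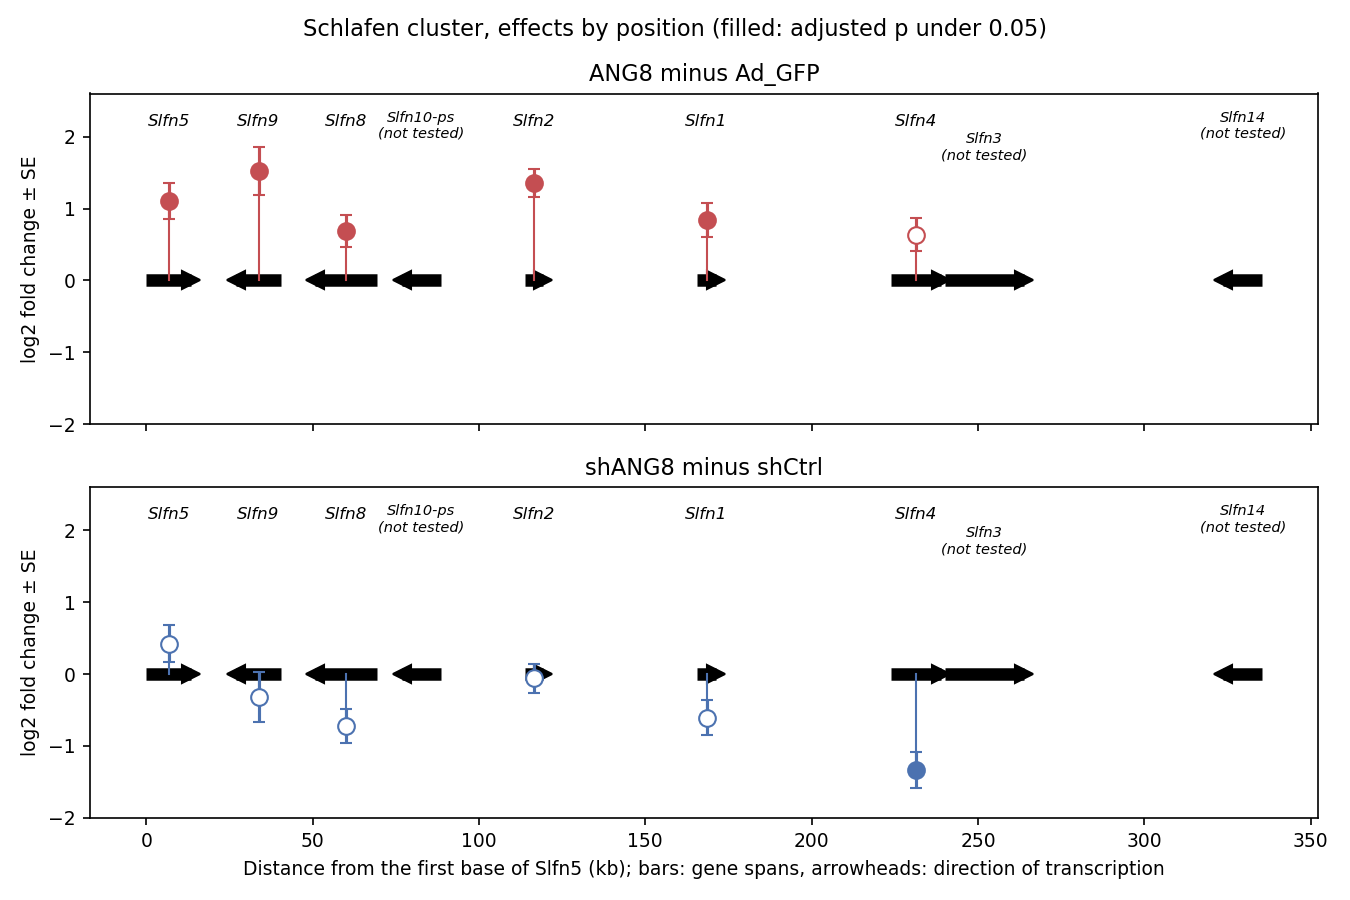
Log2 fold changes with SE along the Schlafen cluster, by distance in kb from the first base of Slfn5, for ANG8 minus Ad_GFP (upper) and shANG8 minus shCtrl (lower), with gene spans as bars and filled points where called. The 5 called ANG8 points spread over the cluster from Slfn5 to Slfn1, and the called shANG8 point is Slfn4.

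The members did not all follow the same course over the 12 libraries. Likeness was measured as the root mean square difference in log2 CPM between genes, each centred on its own mean, over the 12989 tested genes whose log2 CPM averaged 0 or more. It is a description of libraries that share their depth and the separation of ANG8. Within the family Slfn1 and Slfn8 were the most alike (0.26), followed by Slfn2 and Slfn5 (0.32), and Slfn4 and Slfn5 the least (0.98). Outside it, Slfn1 came closest to Apobec3, an antiviral cytidine deaminase (0.10), AU020206 (0.15) and Gimap7, a GTPase of lymphocytes (0.17). Slfn2 came closest to Sirpa, a receptor of myeloid cells (0.14), Ucp2, a mitochondrial carrier (0.17), and Cyba, a subunit of the phagocyte oxidase (0.18). Slfn5 came closest to Ncf1, another subunit of that oxidase (0.18), Usp12, a deubiquitinase (0.19), and Zeb2, a transcription factor (0.21). Slfn8 was nearest to Cenpa, a centromere histone, Fgd2, an exchange factor for CDC42, and Pik3cd, a lipid kinase of leukocytes (0.21 each). For Slfn9 the nearest were Mcm5, a subunit of the replicative helicase (0.25), Ncaph, a condensin subunit (0.30), and Pkmyt1, a kinase that holds back mitosis (0.30). Slfn4 had no gene as close, with Shcbp1 at 0.38, the centromere gene Cenpk at 0.40 and the glutamate receptor gene Gria3 at 0.42, beside its own root mean square variation of 1.16. The measure is not scaled by that variation, which was 0.56 for Slfn1, 0.72 for Slfn2, 0.62 for Slfn5, 0.65 for Slfn8 and 1.13 for Slfn9. A gene that varies more can thus lie further from all others.

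Interferon genes were read beside the family. Of 35 interferon-stimulated genes, 19 rose in ANG8 against Ad_GFP and 16 did not pass, with a median log2 fold change of 0.77. In this comparison 7.08% of all tested genes were called higher. Irf7, a transcription factor that amplifies interferon (0.93, SE 0.17, adjusted p = 0.00246), and Zbp1, a nucleic acid sensor (1.14, SE 0.20, adjusted p = 0.00153), rose. Ifit1 (0.66, SE 0.22, adjusted p = 0.0557), Isg15 (1.23, SE 0.40, adjusted p = 0.0620) and Oas2 (0.46, SE 0.24, adjusted p = 0.224) did not pass. In shANG8 against shCtrl edgeR called 0 of these 35 genes, and DESeq2 and voom called 0, with a median of -0.33. An unadjusted p under 0.05 was reached there by 12 of them and by 1164 of the 14686 tested genes. The effects of ANG8 and shANG8 differed for 17 of the 35, all with the higher effect under ANG8 (median difference 1.00), beside 3.72% of all tested genes. That count was 9 without shCtrl replicate 2, 10 without shCtrl replicate 1 or ANG8 replicate 1, and 11 without Ad_GFP replicate 3 or shANG8 replicate 2.

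Of 6 listed interferon ligands only Ifng passed the filter on low counts, and Ifna2, Ifnl2 and Ifnl3 had 0 counts in every group. Ifng, the ligand made by T cells and NK cells, which was named after its values were seen, did not pass under ANG8 (1.61, SE 0.63, adjusted p = 0.0994) or shANG8 (0.27, SE 0.63, adjusted p = 0.957). Of the 19 tested ligands, receptors and signalling genes (24 listed), 5 rose and 1 fell in ANG8, with a median of 0.31. Among the risers were the receptor chains Ifngr2 (0.67, SE 0.19) and Il10rb (0.82, SE 0.21), the inhibitor Socs1 (1.21, SE 0.33) and the myeloid factor Irf8 (1.11, SE 0.19), and Irf2 fell by 0.63 on the log2 scale (SE 0.20). These 5 genes were picked after their values were seen. The count of risers was 1 without Ad_GFP replicate 2, and it was 2 without Ad_GFP replicate 3, ANG8 replicate 1 or ANG8 replicate 2. Irf2 was not called without Ad_GFP replicate 1 or 2 or ANG8 replicate 1 or 3. Irf1 (0.55, SE 0.18, adjusted p = 0.0544), Ifngr1 (0.39), Jak2 (0.33), Stat2 (0.11) and Ifnar1 (-0.05), whose signs each changed when 1 of 2 libraries was left out, and Irf9 (-0.34) did not pass. In shANG8 edgeR called 0 of the 19, where 4 had an unadjusted p under 0.05 and DESeq2 and voom called 0, with a median of -0.08.

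Markers of immune cells moved with the family in ANG8, and their part in the Schlafen rises was not tested. The counts of risers below stand beside 7.08% of all tested genes called higher. Of 15 Kupffer cell and macrophage markers 11 rose and 0 fell, and their summed level was 1155 to 1508 CPM in ANG8 against 484 to 674 CPM in Ad_GFP. Adgre1 (1.51, SE 0.31), Clec4f (0.67, SE 0.18) and Cd68 (0.92, SE 0.28) were among the risers. Of 20 T cell and NK cell markers 10 rose and 1 fell, with sums of 271 to 293 CPM in ANG8 against 112 to 154 CPM in Ad_GFP. Cd8a (1.54, SE 0.19) and Nkg7 (1.21, SE 0.27) rose, Cd3e did not pass (0.99, SE 0.35, adjusted p = 0.0709), and the marker that fell was Cd4 (-1.17, SE 0.31), which was not called without Ad_GFP replicate 1 or 3 or ANG8 replicate 1 or 2. Of 12 dendritic cell markers 6 rose and 0 fell, among them H2-Aa (1.54, SE 0.31), with sums of 1044 to 1683 CPM in ANG8 against 309 to 530 CPM in Ad_GFP. That list includes the MHC class II genes H2-Aa, H2-Ab1, H2-Eb1, Cd74 and Ciita, which other immune cells also express. H2-Aa alone was at 208 to 306 CPM in ANG8, so this sum is not particular to dendritic cells. Of 9 tested monocyte markers (10 listed) 4 rose and 0 fell, with sums of 103 to 112 CPM in ANG8 against 37.4 to 61.5 CPM in Ad_GFP, while Ly6c2 (0.57, SE 0.37) and Ccr2 (0.77, SE 0.32) did not pass. The macrophage count was 6 without Ad_GFP replicate 1 or ANG8 replicate 3 and 7 without Ad_GFP replicate 2, and the monocyte count was 2 without ANG8 replicate 2.

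Markers of the other cell types were not called higher. EdgeR called 0 of 5 tested neutrophil markers (10 listed) and 0 of 10 B cell markers in ANG8, and none reached an unadjusted p under 0.05 or was called by DESeq2 or voom. That p was reached in ANG8 against Ad_GFP by 4069 of the 14686 tested genes. S100a8 had 0.53 (SE 0.43) and Cd79a -0.62 (SE 0.55). Neutrophil markers summed to 31.1 to 41.5 CPM in ANG8 against 17.2 to 40.2 CPM in Ad_GFP, and Ly6g, a defining marker, had 0 counts in ANG8. B cell markers summed to 40.3 to 50.2 CPM in ANG8 against 53.4 to 75.6 CPM in Ad_GFP. Of 10 endothelial markers edgeR called 0, where 1 had an unadjusted p under 0.05 and DESeq2 and voom each called 1, with sums of 206 to 244 CPM in ANG8 against 164 to 223 CPM in Ad_GFP, and 1.06 (SE 0.37) for Pecam1. Of 15 hepatocyte markers 8 fell and 0 rose (5 fell without Ad_GFP replicate 1 or 3 or ANG8 replicate 1 or 2), with sums of 25975 to 53627 CPM in ANG8 against 47271 to 70172 CPM in Ad_GFP. Over all 14686 tested genes, 938 were called lower in ANG8. Alb, the leading hepatocyte transcript, did not pass (-0.57, SE 0.33) and was at 15338 CPM or more in every library.

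In shANG8, where Slfn4 fell, edgeR called 0 members of each of these 8 cell type lists. In this comparison 1164 of the 14686 tested genes had an unadjusted p under 0.05. The summed neutrophil markers were 9.90 to 13.9 CPM in shANG8 against 22.5 to 25.4 CPM in shCtrl, without overlap, with 4 of 5 tested markers at an unadjusted p under 0.05. DESeq2 called 0 of them and voom 0, and Ly6g was at 0 counts in both groups. T cell and NK cell markers summed to 92.4 to 140 CPM in shANG8 against 145 to 182 CPM in shCtrl, also without overlap, with 7 of 20 at an unadjusted p under 0.05, 1 called by DESeq2 and 0 by voom. Monocyte markers (22.7 to 40.8 CPM in shANG8 against 35.5 to 48.9 in shCtrl) and macrophage markers (339 to 633 CPM in shANG8 against 379 to 441 in shCtrl) overlapped, where 0 and 3 had an unadjusted p under 0.05, DESeq2 called 0 and 1, and voom called 0. Dendritic cell, B cell and endothelial markers had 0 at an unadjusted p under 0.05, and hepatocyte markers had 1; for these 4 lists DESeq2 and voom called 0. The part of any cell type in the fall of Slfn4 was not tested.

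**Figure D5:**
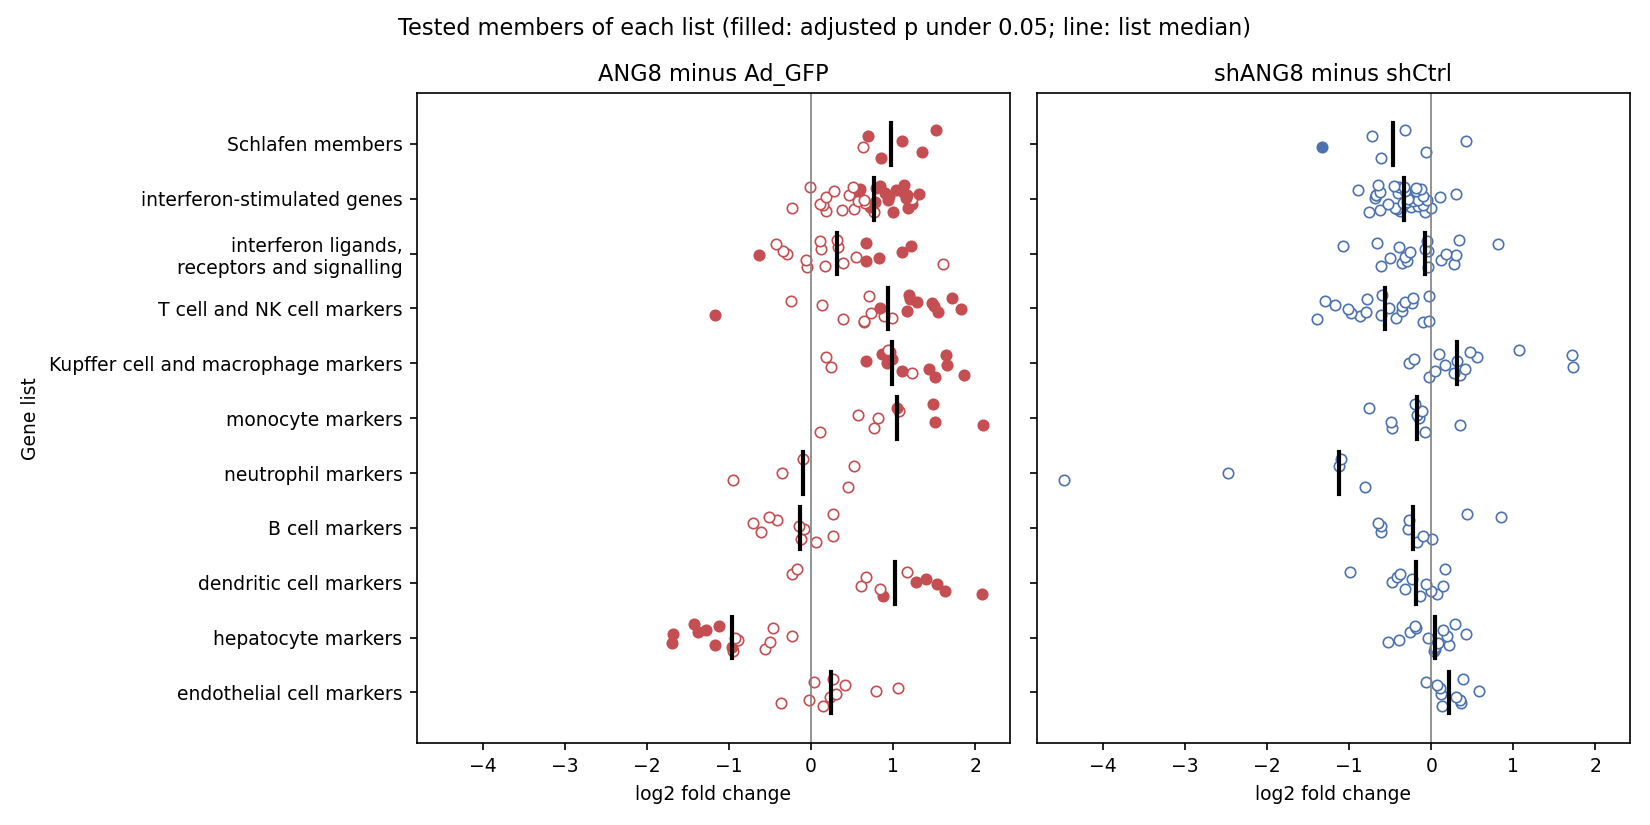
Log2 fold changes of the tested genes of each list, for ANG8 minus Ad_GFP (left) and shANG8 minus shCtrl (right), filled where the edgeR adjusted p was under 0.05, with the list median as a line. Under ANG8 the Schlafen median is 0.98. Those of the macrophage, dendritic cell, monocyte, and T cell and NK cell lists are 0.98, 1.03, 1.05 and 0.94. Under shANG8 the only filled point is Slfn4.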

How the data were processed

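Liver RNA from 12 libraries was profiled as raw counts. Per the labels' protocols, Trizol was used for extraction and a NEBNext Ultra kit for the libraries. The deposited counts are whole numbers of reads per gene that the authors did not normalize. Per the submitters' processing notes, featureCounts 1.5.0-p3, CASAVA 1.8.2 and mm9 were used, but the gene coordinates in the table are those of GRCm38, and all 7 members match GENCODE vM21. The aligner and the strand setting were not given in the sources used here. Without strand, reads of Slfn2 and of the antisense gene on it, Gm20234, cannot be told apart. The table gives Gm20234 20 counts over all 12 libraries and Slfn2 3077.

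Genes were filtered with filterByExpr and scaled by TMM, and all 12 libraries were fitted together in edgeR 4.0.16 (R 4.3.3) with a robust quasi-likelihood fit. Standard errors are the log2 fold change divided by the square root of F. Levels per kb divide CPM by the deposited gene length. Replicates of a group differed by more than counting noise (chi-square per gene of 14.5 to 150). The script was tested on simulated data. Alternatives were TMM against DESeq2 size factors, DESeq2 1.42.0, limma voom 3.58.1, no filter on low counts, only the groups compared, no mitochondrial genes, a replicate block and leaving out each library. Log2 CPM for likeness used a prior count of 2. The members and lists were chosen with earlier results of these data known. Named genes were the members, fixed examples of each list, the 3 genes most like each member and the flanking genes, of which some items are not reported here. The examples were fixed with the lists, apart from those the text names as chosen later.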

Additional observations from a re-analysis of the deposited data

How the results depend on the processing

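Of the recomputed counts of called members and of all called genes, 33 moved by over 1.5 times, or to or from 0, and 83 did not. The full ranges over left-out libraries and the larger moves follow. Leaving out 1 library gave 3 to 5 members and 995 to 1684 genes for ANG8 against Ad_GFP, 0 to 1 members and 21 to 39 genes for shANG8 against shCtrl, 3 to 5 members and 473 to 1227 genes for the difference of these effects, and 0 to 1 members and 0 to 10 genes for shCtrl against Ad_GFP. The 3 members under ANG8 were reached without Ad_GFP replicate 1, ANG8 replicate 2 or ANG8 replicate 3. For shANG8 against shCtrl, voom called 0 members, and DESeq2, no filter and the replicate block called 102, 132 and 55 genes beside 28. For the difference, DESeq2, no filter and the replicate block called 1541, 1510 and 1550 genes beside 972. For shCtrl against Ad_GFP, DESeq2 called 1 member and 46 genes, no filter 1 member and 96 genes, and the replicate block 5 genes, beside 0. The cause was not tested. Replicate numbers were not taken to pair the samples, because 10 of 18 same-numbered pairs, and not all, had a correlation of deviations over 0.1 (range -0.07 to 0.26). The 3 pairs of shANG8 and Ad_GFP, groups not compared with each other, were all over 0.1. With 3 numbers to choose from in each case, libraries correlated best with their own number in 27 of 36 cases. Libraries numbered 3 did so in every case. Most of the misses were of libraries numbered 1. This is a hint of a link by number, from the data only. Under the block 2600 genes were called for ANG8 against Ad_GFP, beside 1978. The block added the call of Slfn4 under ANG8, 6 members in all, and changed no other call of a member.

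Of the 348 recomputed fold changes of members, 310 kept their direction and their side of the threshold, 23 lost the call, 7 gained it and 8 changed sign, none of them called. The sign changed for Slfn2 under shANG8 without shCtrl replicate 2 (0.02) or shANG8 replicate 2 (0.13), within -0.20 to 0.13 over the left-out libraries, and for Slfn9 without shANG8 replicate 1 (0.0027), within -0.94 to 0.0027. It also changed for Slfn1 in shCtrl against Ad_GFP with voom (0.014) and without Ad_GFP replicate 2 (0.09), Ad_GFP replicate 3 (0.10), shCtrl replicate 1 (0.05) or shCtrl replicate 3 (0.03), within -0.23 to 0.10. In an analysis added after seeing the data, Stat2 under ANG8 changed sign without Ad_GFP replicate 1 (-0.0028) or ANG8 replicate 2 (-0.010), within -0.010 to 0.29, and Ifnar1 without Ad_GFP replicate 2 (0.0049) or ANG8 replicate 1 (0.028), within -0.14 to 0.028. Depth limits the Schlafen rows other than the 6 tested members, for which no difference between groups was tested.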
